A study of Homo sapiens with 8 samples.

Results

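The guanylate-binding proteins are a family of 7 genes in this data set, GBP1 to GBP7, chosen by gene name from the 60558 genes measured in human intestinal epithelial cells (hIECs). Of the 7, 6 were above 0 in at least 1 library, and 5 reached the level set for testing, at least 1 FPKM in at least 2 libraries (FPKM, fragments per kilobase of transcript, scaled for library size). The hIECs were grown in 2D from the embryonic stem cell line H9, and RNA-seq covered 4 groups of 2 libraries each. Normal hIECs received neither agent. Normal hIECs with PM10 received PM10, a coarse airborne particulate matter, as a reference material at 100 µg/ml. Inflamed hIECs received IFNγ and TNFα, each at 50 ng/ml, and inflamed hIECs with PM10 received both cytokines and the same PM10 dose. The cytokines were given for 10 days and PM10 for the last 7 days, while the sample labels give 10 days for all groups. The labels do not say whether the libraries of a group came from separate cultures, so the p-values measure only the spread between these libraries, which may be technical.

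GBPs are large GTPases of the dynamin superfamily that cells make in response to interferon, above all IFNγ. They assemble on the surface of intracellular bacteria and on other targets, where GBP1 binds lipopolysaccharide and, with GBP2, GBP3 and GBP4, recruits caspase-4, which cleaves gasdermin D. GBP1, GBP2 and GBP5 carry a lipid tail, added by prenylation, that anchors them to membranes. In the gut epithelium, GBPs are known as part of the cell's own defence against invading microbes and as genes raised in inflamed mucosa.

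The 7 genes lie side by side on chromosome 1 (GRCh38 with GENCODE 44 positions), between 89006679 and 89388160, a span of 381 kb that holds no other protein-coding gene. In order they are GBP3 (89006679 to 89022894), GBP1 (89051882 to 89065360), GBP2 (89106132 to 89150456), GBP7 (89131742 to 89176009), GBP4 (89181144 to 89198942), GBP5 (89256189 to 89272860) and GBP6 (89364059 to 89388160). The first 6 lie on the minus strand and GBP6 on the plus strand. GBP2 and GBP7 share exonic bases, which make up 8.60% of the exonic bases of GBP2, and GBP7 shared 29.8% of its exonic bases with GBP2 or with an unnamed gene. The libraries carried no strand information.

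The window from 250 bases before to 50 bases after the RefSeq gene start (GRCh38.p14) was found for 5 of the 7 members, GBP1, GBP3, GBP4, GBP6 and GBP7. GBP2 and GBP5 had no entry. These windows were searched on both strands for a GAS motif (TTCNNNGAA, the interferon-gamma activated site), an ISRE motif (GAAANNGAAA, the interferon-stimulated response element, bound by IRF factors) and the NF-kB motif. Over all 35116 RefSeq windows of this length, 7.66% held the GAS letters, 3.57% the ISRE letters and 5.91% the NF-kB letters. The 3 members shown first rose with cytokines and hold an ISRE match, and GBP7, which was listed at 0 in all libraries, is shown beside them. Each runs 5′ to 3′ on the gene's strand, with motif matches in capitals.
GBP1, chr1:89065159-89065458, minus strand: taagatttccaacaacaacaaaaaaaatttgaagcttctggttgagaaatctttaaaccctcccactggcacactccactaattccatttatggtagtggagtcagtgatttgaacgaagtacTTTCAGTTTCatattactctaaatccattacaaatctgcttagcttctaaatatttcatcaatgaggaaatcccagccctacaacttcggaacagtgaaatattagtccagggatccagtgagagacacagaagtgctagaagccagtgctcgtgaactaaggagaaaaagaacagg
GBP3, chr1:89022817-89023116, minus strand: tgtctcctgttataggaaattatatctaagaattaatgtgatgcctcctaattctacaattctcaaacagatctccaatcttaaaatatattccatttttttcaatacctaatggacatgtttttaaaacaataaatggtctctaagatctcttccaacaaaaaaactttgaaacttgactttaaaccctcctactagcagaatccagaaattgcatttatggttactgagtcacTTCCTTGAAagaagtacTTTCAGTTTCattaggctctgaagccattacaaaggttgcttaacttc
GBP4, chr1:89198893-89199192, minus strand: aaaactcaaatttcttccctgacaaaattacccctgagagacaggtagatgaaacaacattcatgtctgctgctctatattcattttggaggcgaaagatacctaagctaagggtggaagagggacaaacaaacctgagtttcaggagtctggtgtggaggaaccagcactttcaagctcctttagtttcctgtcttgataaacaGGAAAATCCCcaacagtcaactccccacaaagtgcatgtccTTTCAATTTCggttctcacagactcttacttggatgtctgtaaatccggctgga
GBP7, chr1:89175954-89176253, minus strand: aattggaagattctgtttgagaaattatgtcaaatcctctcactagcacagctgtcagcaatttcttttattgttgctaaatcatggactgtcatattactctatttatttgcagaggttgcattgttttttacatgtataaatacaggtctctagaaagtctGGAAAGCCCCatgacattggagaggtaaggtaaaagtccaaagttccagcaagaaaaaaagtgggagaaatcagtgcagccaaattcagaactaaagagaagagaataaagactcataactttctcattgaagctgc

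The ISRE letters began at position -127 from the RefSeq start in GBP1, at 3 in GBP3 and at -4 in GBP4. For GBP1, GBP3 and GBP7 the RefSeq start lies inside the GENCODE span given above, so positions from the GENCODE start would differ. The match in GBP1 and GBP3 was TTTCAGTTTC, and in GBP4 it was TTTCAATTTC, each lying on the opposite strand. GBP3 also held a GAS match, TTCCTTGAA, at -15, and 0.439% of all windows held GAS and ISRE together. The NF-kB matches were GGAAAATCCC at -45 in GBP4 and GGAAAGCCCC at -87 in GBP7. None of these matches overlapped another, and the GBP6 window held none of the 3 motifs. GBP7, listed at 0 throughout, thus held a match, while GBP6, above 0 with cytokines, held none in this window. A match describes letters in this window and does not show that a factor binds there. Sites that depart from the searched letters would be left unmarked, in the GBP1 window as in the others, so no match does not mean no site.

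The cell type labels were checked against marker genes. Of 10 epithelial markers, VIL1, CDX2, KRT20, CLDN7 and ESRP1 were at 0 in all 8 libraries, and the summed level of the list was 640.8 to 651.4 FPKM in normal hIECs, 598.0 to 635.4 with PM10, 346.8 to 351.7 in inflamed and 287.0 to 304.9 in inflamed hIECs with PM10, mostly KRT8 and KRT18. CDH1 was above 0 in only 1 library, at 0.221 FPKM, and EPCAM reached at most 0.622 FPKM. KRT19 averaged 1.69 FPKM in normal and 1.04 FPKM in inflamed hIECs. All 8 mesenchymal markers were present, at summed levels from 4273 to 5615 FPKM. Apart from KRT8 and KRT18, the epithelial markers were thus low or at 0, and these lists did not bear out the epithelial label. The name hIECs is kept from the study, which reported mRNA and staining of intestinal markers, CDX2 and VIL1 among them, in its 2D hIECs. Immune markers were near 0 (6 of 8 at 0 in all libraries, summed level at most 1.83 FPKM), as were endothelial markers (5 of 6 at 0, at most 0.348 FPKM). The part of these cell types in the GBP values was not tested.

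Without cytokines, GBP1 was the main GBP of hIECs, and with cytokines the family reached far higher levels and took on members that had been listed at 0. GBP1 was at 22.97 and 18.9 FPKM in the normal libraries, at 27.4 and 27.5 in those given PM10, at 252.2 and 252.7 with cytokines and at 234.7 and 237.2 with cytokines and PM10. The 4 libraries with cytokines were all far above the 4 without them. GBP1, which binds lipopolysaccharide on bacteria, averaged 20.9 ± 2.91 FPKM (SD, n = 2) in normal and 252.5 ± 0.388 in inflamed hIECs, a 12.1-fold rise. Its rank from the highest gene moved from 2558 and 2957 in the normal libraries to 220 and 221 in the inflamed libraries. In bulk libraries, fewer cells of a type and less RNA per cell cannot be told apart, and the same holds for more cells and more RNA.

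GBP2, a prenylated member that restrains the protease furin, was at 8.96 and 8.75 FPKM in normal hIECs, 10.8 and 10.9 with PM10, 33.4 and 32.9 in inflamed hIECs, and 31.1 and 31.3 in inflamed hIECs with PM10. Its mean rose 3.74-fold from 8.85 ± 0.148 to 33.1 ± 0.349 FPKM with cytokines, the smallest fold of the 3 members that had RNA in normal hIECs. GBP3, which joins GBP1 on bacteria, was at 2.47 and 2.93 FPKM in normal hIECs, 3.18 and 3.17 with PM10, 17.7 and 18.8 in inflamed hIECs, and 22.7 and 19.8 in inflamed hIECs with PM10. Its mean rose 6.76-fold from 2.70 ± 0.328 to 18.3 ± 0.796 FPKM, and no library with cytokines overlapped one without.

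GBP4, GBP5 and GBP6 were listed at 0 in all 4 libraries without cytokines and above 0 in all 4 with them. GBP5, which is prenylated and linked to inflammasome activity, was at 128.7 and 127.7 FPKM in inflamed hIECs and at 120.4 and 124.4 with PM10, ranking from 426 to 452 among all genes in those libraries. It was thus second only to GBP1 among the members once cytokines were given. GBP4, which joins GBP1 on bacteria, was at 17.5 and 17.2 FPKM in inflamed hIECs and at 16.5 and 15.9 with PM10. GBP6 was at 0.900 and 0.856 FPKM in inflamed hIECs and at 0.961 and 0.910 with PM10, too low for the test. A 0 here is a listed value, since the lowest FPKM above 0 in a library was between 0.164 and 0.228, so no fold is given against it. GBP7 was listed at 0 in all 8 libraries, and 5406 of 19957 protein-coding genes were listed at 0 in all 8.

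GBP4 and GBP5 belonged to 12 protein-coding genes that were listed at 0 in the 4 libraries without cytokines and at 10 FPKM or more in all 4 with them. Over these 4 libraries GBP5 averaged 125.3 FPKM, behind OR2I1P and CCL5, and GBP4 averaged 16.75. The 12 also held the chemokine CCL5 and the apolipoprotein L genes APOL1 and APOL3. No protein-coding gene (0 of 19957) was at 0 in 1 library and at 5 FPKM or more in the other 7, so a lone 0 of that kind was not seen in these libraries.

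**Figure D1:**
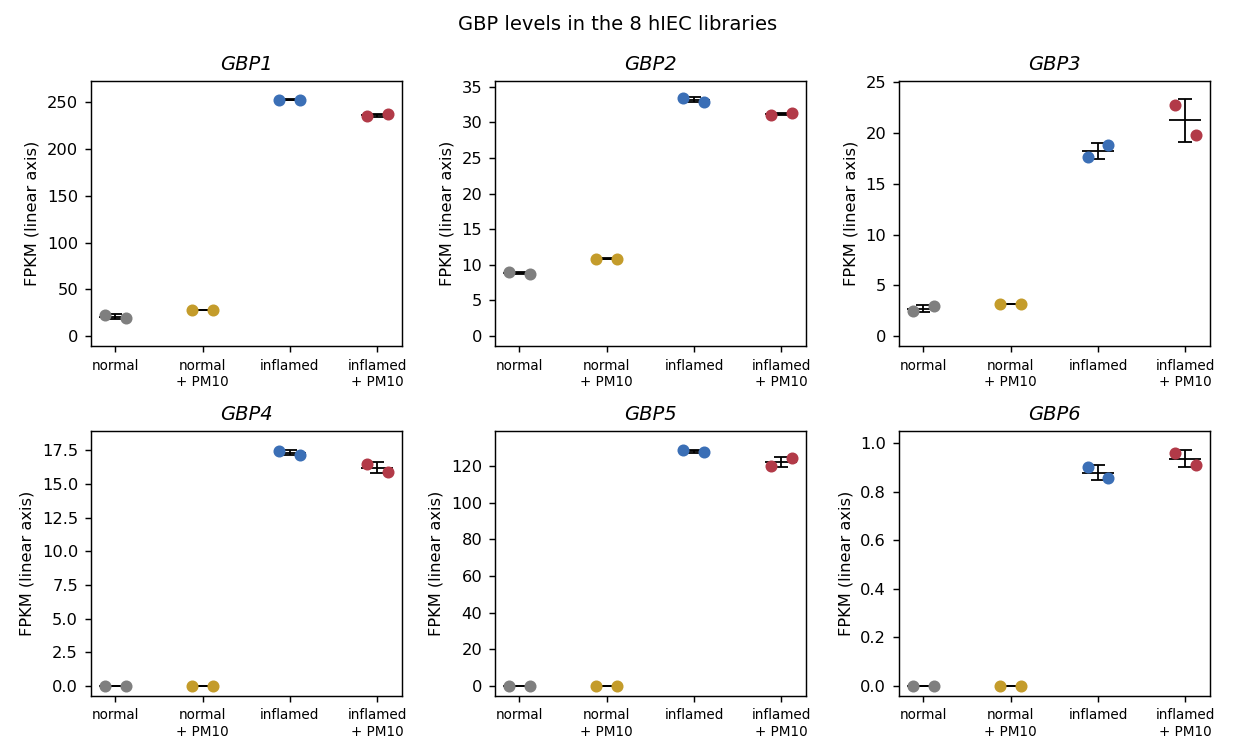
FPKM (linear axis) of GBP1 to GBP6 in the 4 groups, 1 point per library, with the mean as a bar and the SD over 2 libraries as whiskers; GBP7 was at 0 throughout and is left out. GBP4, GBP5 and GBP6 sit at 0 in both groups without cytokines, and GBP1 lies at 18.9 to 27.5 FPKM without and 234.7 to 252.7 FPKM with them.

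In the limma test on log2(FPKM + 1), 5 of the 5 members tested were higher in inflamed than in normal hIECs, where 25.9% of the 14206 genes tested were called higher and 30.3% lower, at an adjusted p below the threshold of 0.05. The median log2 difference of the 5 was 3.54, the value of GBP1, and that of all genes was -0.03. The median of the 5 includes GBP4 and GBP5, which have the limit given below. Among GBP1, GBP2 and GBP3 the middle value was 2.38, that of GBP3. The log2 difference was 3.54 for GBP1 (SE 0.081, limma adjusted p = 8.756e-08), 1.79 for GBP2 (SE 0.047, limma adjusted p = 1.657e-07) and 2.38 for GBP3 (SE 0.089, limma adjusted p = 9.288e-07). GBP4 and GBP5 were at 0 in the normal group and passed the filter only through libraries with cytokines. Their calls were thus largely fixed in advance and add no support to those of GBP1, GBP2 and GBP3. GBP6 did not enter this fit. With no filter on low values limma called it higher (adjusted p of 0.0001236), with the same limit. The calls of these 5 members held in all 17 alternative settings. With 2 libraries against 2, the smallest two-sided p of an exact permutation test on 1 gene is 0.333.

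With PM10 in both arms, limma again called 5 of 5 members higher with cytokines, against 25.8% of all genes. GBP1 rose 8.59-fold from 27.5 ± 0.0592 to 236.0 ± 1.77 FPKM, GBP2 rose 2.87-fold from 10.9 ± 0.0288 to 31.2 ± 0.156, and GBP3 rose 6.70-fold from 3.17 ± 0.0125 to 21.3 ± 2.09. The log2 difference was 3.06 for GBP1 (limma adjusted p = 1.341e-07), 1.44 for GBP2 (limma adjusted p = 3.699e-07) and 2.41 for GBP3 (limma adjusted p = 6.233e-07). GBP4 and GBP5, listed at 0 in normal hIECs with PM10, were also called, with the limit given above. The median log2 difference of the members, GBP4 and GBP5 included, was 3.06 and that of all genes -0.11. Among GBP1, GBP2 and GBP3 the middle value was 2.41, that of GBP3.

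Because FPKM is scaled for length, levels can be set against each other between members. In normal hIECs the order was GBP1, GBP2 and GBP3, with no overlap between neighbours, and the rest at 0. In inflamed hIECs the order was GBP1, GBP5, GBP2, GBP3, GBP4 and GBP6. GBP3 and GBP4 were the closest pair there, the lower GBP3 library at 17.7 and the higher GBP4 library at 17.5 FPKM, a gap smaller than the SD of GBP3. The summed GBP level was 32.5 ± 2.73 FPKM in normal hIECs, 41.5 ± 0.0754 with PM10, 450.2 ± 0.138 with cytokines and 427.9 ± 2.23 with cytokines and PM10. The sum was thus 13.9-fold higher in inflamed than in normal hIECs and 10.3-fold higher where both arms had PM10.

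The makeup of the sum changed with it. GBP1 gave 64.3% ± 3.55 (SD, n = 2) of the summed level in normal hIECs and 56.1% ± 0.103 in inflamed hIECs. GBP2 fell from 27.3% ± 1.84 to 7.36% ± 0.0752 of the sum although its own level rose. GBP5 went from 0% to 28.5% ± 0.156, and GBP4 reached 3.85% ± 0.0429. In inflamed hIECs with PM10, GBP1 gave 55.1% ± 0.127, GBP5 28.6% ± 0.513 and GBP2 7.29% ± 0.00165. These shares are descriptions and carry no test.

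**Figure D2:**
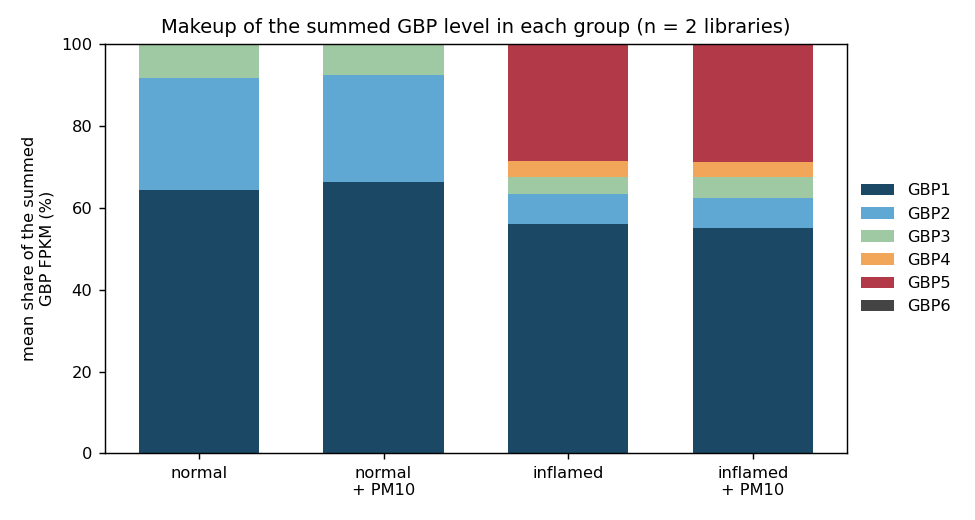
Mean share (%) of the summed GBP FPKM held by each member in each group (2 libraries each); GBP7 is at 0. GBP2 shrinks from 27.3% in normal to 7.36% in inflamed hIECs, where GBP5 takes 28.5%; GBP6, at 0.195%, is too thin to see.

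PM10 on its own was followed by small rises of GBP1 and GBP2 in normal hIECs. GBP1 was 31.3% higher with PM10, both PM10 libraries (27.4 and 27.5 FPKM) lying above both without it (22.97 and 18.9). GBP2 was 22.7% higher, again with no overlap between the groups. The share of all genes without overlap between these groups is not given, so neither gap is read as a result. limma called 2 of the 5 members tested, against 5.51% of all genes called higher. Of these 5, GBP4 and GBP5 were at 0 in both groups and could not be called. The log2 difference was 0.38 for GBP1 (95% interval 0.19 to 0.57, limma adjusted p = 0.03194) and 0.27 for GBP2 (0.16 to 0.38, limma adjusted p = 0.01932). GBP3 had a log2 difference of 0.18 (-0.03 to 0.39) with a limma adjusted p of 0.2356, and GBP4, GBP5, GBP6 and GBP7 stayed listed at 0 in both groups.

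These PM10 calls rested on few libraries and on the fit. Neither gene was called without either of the normal libraries with PM10, when only the 2 groups compared entered the fit, or after rescaling to TPM. Over all alternatives limma's adjusted p ranged from 0.001733 to 0.1416 for GBP1 and from 0.0157 to 0.1212 for GBP2. Only GBP2 was called without any 1 of the 4 libraries with cytokines, or without the variance trend. The log2 difference of GBP1 was 0.25 without normal replicate 2 and 0.52 without normal replicate 1. Genes encoded by mitochondrial DNA took 24.2% of the FPKM sum in normal replicate 2 and 17.02% in normal replicate 1, against 20.4% and 20.2% with PM10, and their part in the result was not tested. Among all genes called, 59.7% were higher with PM10, but 42.9% after median centring and 49.8% after quantile normalization, under both of which limma still called GBP1 and GBP2 higher. CYP1B1, an enzyme induced through the aryl hydrocarbon receptor, rose from 6.43 ± 0.679 to 64.3 FPKM with PM10 (limma adjusted p = 3.821e-06). It also averaged 36.7 FPKM in inflamed hIECs without PM10. CYP1A1, looked at with it, was at 0 in normal hIECs and at 0 and 0.241 FPKM with PM10.

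In inflamed hIECs, PM10 moved no member past the test. limma called 0 of the 5 members tested, where 15.2% of all genes were called in either direction, and 0 of the 5 had an unadjusted p below 0.05 in this fit. None was called in the 17 alternative limma fits either, and no other tool was run. The mean of GBP1 was 6.52% lower, that of GBP2 5.93% lower, of GBP4 6.55% lower and of GBP5 4.53% lower, with GBP3 16.5% and GBP6 6.51% higher. For GBP1, GBP2, GBP4 and GBP5 both PM10 libraries lay below both without it, and for GBP3 and GBP6 both lay above. With 2 libraries against 2, such a gap in 1 gene has a two-sided p of 0.333 by an exact permutation test. The share of all genes with such a gap is not given, so these gaps are not read as an effect. The log2 difference was -0.10 for GBP1 (95% interval -0.29 to 0.09, limma adjusted p = 0.449) and -0.09 for GBP2 (-0.20 to 0.03, limma adjusted p = 0.2566). GBP3 had a log2 difference of 0.21 (-0.002 to 0.42) and an adjusted p of 0.1593 by limma, with a lowest value of 0.1052 over the alternatives. For GBP1 limma's adjusted p over the alternatives ran from 0.05134, with only the groups compared, to 0.8392, and it was 0.0559 and 0.05511 without normal replicate 1 or 2. GBP4 (-0.09, -0.24 to 0.06, limma adjusted p = 0.3664) and GBP5 (-0.07, -0.19 to 0.06, limma adjusted p = 0.4169) were likewise not called.

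The effect of PM10 on GBP2 differed between the normal and inflamed states. The interaction, the PM10 difference in inflamed minus that in normal hIECs, which uses the same libraries as both PM10 comparisons, was -0.35 for GBP2 on the log2 scale (SE 0.067, limma adjusted p = 0.02768), called in 1 of 5 members against 4.48% of all genes called lower. For GBP1 it was -0.48 (SE 0.115) with an adjusted p of 0.05355 by limma, just outside the threshold, and for GBP3 it was 0.03 with an adjusted p of 0.9155 by limma. For GBP4 and GBP5, at 0 without cytokines, the interaction only repeats the PM10 difference in inflamed hIECs. The call of GBP2 was lost without any of the 4 libraries with cytokines or either of the normal libraries with PM10. It was also lost after rescaling to TPM (limma adjusted p = 0.1391). Far fewer of all genes were called in those fits too, so the loss is not particular to GBP2. GBP1 was called without normal replicate 1 or 2 (log2 differences of -0.62 and -0.34) and after median centring. Of all genes called, 32.02% were higher, against 45.7% after median centring and 46.6% after quantile normalization.

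**Figure D3:**
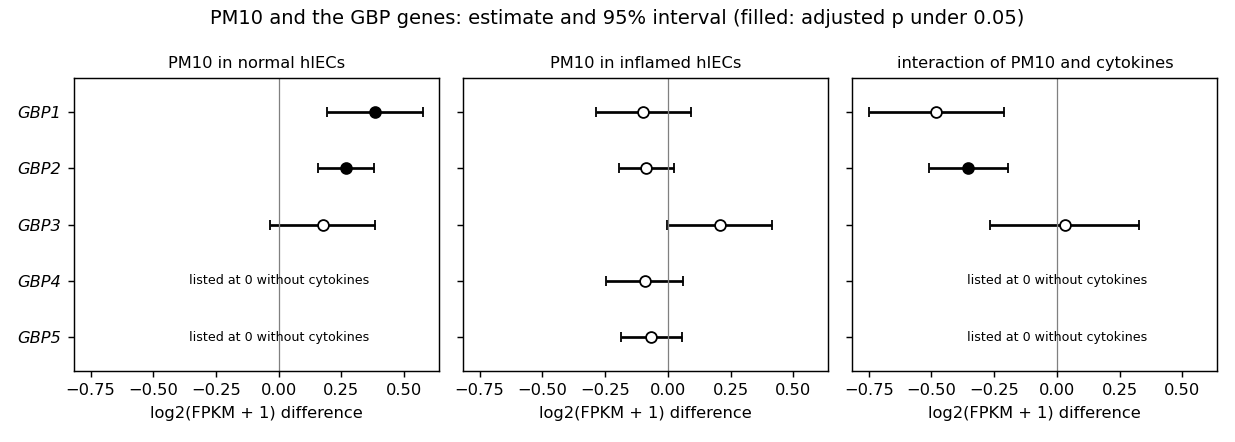
Difference in log2(FPKM + 1) with its 95% interval (limma) for PM10 in normal hIECs, PM10 in inflamed hIECs and the interaction; filled points passed an adjusted p of 0.05. GBP1 (0.38) and GBP2 (0.27) lie above 0 in normal hIECs, no member is filled in inflamed hIECs, and GBP2 (-0.35) is the filled point of the interaction.

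Apart from GBP1P1, the genes beside the cluster moved far less than the GBPs tested. Of 9 neighbours measured, limma called 4 higher and 2 lower with cytokines without PM10, where 25.9% of all genes were called higher and 30.3% lower. The median log2 difference of the 9 was 0.35 against -0.03 for all genes. With 9 genes, the count is not read as a result about them. GBP1P1, LRRC8B and LRRC8C also passed the filter only through libraries with cytokines. The one large change was GBP1P1, a pseudogene of GBP1, which went from 0.166 and 0 FPKM in normal to 19.4 and 17.1 in inflamed hIECs, a log2 difference of 4.15 (limma adjusted p = 8.858e-08). It shares 4.10% of its stretches of 100 bases with GBP1, and GBP1 shares 1.98% of its own with it. For stretches of 50 bases, the shortest reads kept, the shares were 27.9% and 14.04%, and the split of reads between them is uncertain. RBMXL1 (whose exons overlap those of KYAT3), LRRC8B and LRRC8C rose by log2 differences of 0.35, 0.36 and 0.41. GTF2B and KYAT3 fell by 0.24 and 0.35 on the log2 scale, and these falls were not called after rescaling to TPM. GBP7 shared 22.7% of its 100-base stretches with GBP2 or with an unnamed gene, and was at 0.

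**Figure D4:**
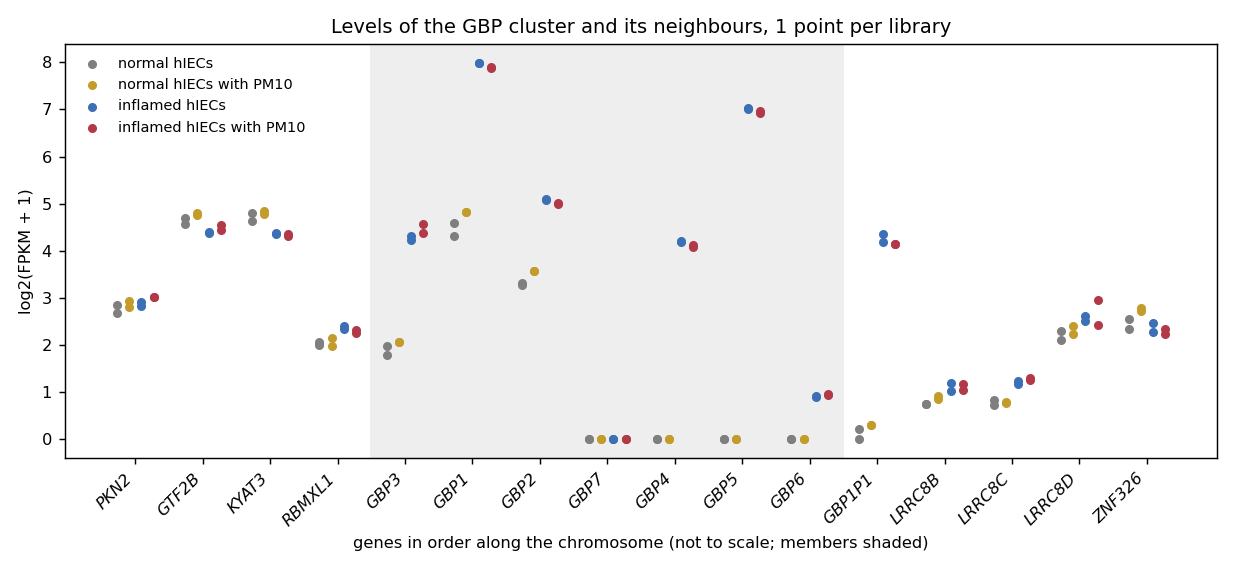
log2(FPKM + 1) of the 7 GBPs (shaded) and their neighbours in order along the chromosome (not to scale), 1 point per library, coloured by group. The members other than GBP7 and the pseudogene GBP1P1 are separated by cytokines, while neighbours such as GTF2B and KYAT3 differ by 0.24 and 0.35 on the log2 scale.

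The genes that carry the IFNγ and TNFα signal to GBP promoters largely rose with the GBPs. Of 18 such genes, limma called 12 higher and 3 lower with cytokines without PM10, where 25.9% of all genes were called higher and 30.3% lower. Their median log2 difference was 0.74, and that of all genes -0.03. IRF1, an interferon-induced transcription factor, went from 3.65 ± 0.786 to 81.2 ± 0.0773 FPKM, and IRF8, a related factor, from 0.818 to 24.3. IRF8 passed the filter only through libraries with cytokines, so its call was largely fixed in advance. NFKB1, a subunit of the factor that TNFα activates, rose 1.84 on the log2 scale. SOCS1, a feedback inhibitor of this pathway, rose 1.46, while SOCS3, another inhibitor, fell by 0.84, with IFNGR2 and STAT3 also lower (not called after rescaling to TPM). With PM10 in normal hIECs limma called 5 of the 18 higher, where 5.51% of all genes were called higher. IRF1 and NFKB1 were among the 5. The number was 4 after median centring, 4 after quantile normalization and 0 after rescaling to TPM. With PM10 in inflamed hIECs limma called 1 of the 18, where 15.2% of all genes were called in either direction. The 1 was SOCS3, which fell by 0.44 on the log2 scale.

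Most of the tested genes that act with GBPs were called higher with cytokines. Of 13 partners and effectors measured, CASP5 and NLRP3 were at 0 in all libraries, and of 11 tested limma called 8 higher and 1 lower, where 25.9% of all genes were called higher and 30.3% lower. PYCARD, an inflammasome adaptor, and IL18, a cytokine that inflammasomes release, were not called. CASP4, the caspase that GBPs bring to lipopolysaccharide, went from 1.39 ± 0.215 to 22.9 ± 0.0231 FPKM, and GSDMD, which it cleaves, from 3.48 to 7.47. CASP1, an inflammasome caspase, went from 0 to 9.60, APOL3, which acts on bacteria with GBP1, from 0 to 15.3, and AIM2, a DNA sensor, from 0.254 to 6.52 FPKM. CASP1, APOL3 and AIM2 were at most 0.355 FPKM without cytokines and passed the filter only through libraries with cytokines. Their calls were thus largely fixed in advance and add no support. FURIN rose from 25.1 to 43.0 FPKM. PIM1, a kinase that phosphorylates GBP1, was the one gene lower, by 0.16, and this call was lost after median centring, quantile normalization and rescaling to TPM. The median log2 difference of the tested genes, CASP1, APOL3 and AIM2 included, was 1.22, against -0.03 for all genes. RNF213 was not analysed here.

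The enzymes that prenylate and trim GBPs showed no common direction. Of 6, limma called ICMT and ZMPSTE24 higher, and FNTB and RCE1 lower with cytokines (log2 differences of 0.44, 0.28, -0.43 and -0.30), with a median of -0.13 against -0.03 for all genes, and RCE1 was not called after rescaling to TPM. With 25.9% of all genes called higher and 30.3% lower, this count is near the background. Among 12 related large GTPases, IRGC, GVINP1 and RNF112 were at 0 in all libraries. Of 7 tested, limma called 3 higher, MX1 (0.524 to 15.6 FPKM, an antiviral dynamin-like protein), ATL1 and ATL3, and DNM2 lower, with a median log2 difference of 0.17 against -0.03 for all genes. This count, too, is near the background of 25.9% higher and 30.3% lower, and DNM2 was not called after rescaling to TPM. MX1 passed the filter only through libraries with cytokines, so its call was largely fixed in advance. Of the atlastins, close relatives that shape the endoplasmic reticulum, ATL1 and ATL3 rose by 0.58 and 0.18 on the log2 scale, and ATL2 (0.17, limma adjusted p = 0.05924) was called only after median centring, quantile normalization or rescaling to TPM among the scalings tried.

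The genes whose pattern over the 8 libraries lay nearest to each member included several known interferon-responsive genes. The measure was the root mean square difference of log2(FPKM + 1), each gene centred on its mean, and it is a description across 8 libraries that share 4 groups. For GBP1 the nearest were EPSTI1 (0.094), MX1 (0.136) and CASP1 (0.139), and for GBP2 they were APOL2 (0.028), NFKB1 (0.057) and RELB (0.058). For GBP3 they were TAPBP (0.103), TAPBPL (0.107) and IFI44L (0.121), genes of antigen presentation and interferon response. For GBP4 they were FDCSP (0.058), IL15RA (0.083) and APOL3 (0.084), all at 0 in normal hIECs. For GBP5 they were IDO1 (0.128), which degrades tryptophan, IFI27 (0.204) and OR2I1P (0.258), which shares its locus with UBD and so has an uncertain level.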

How the data were processed

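RNA-seq of 8 libraries, 2 per group, was analysed. The authors deposited FPKM values for each gene in each library, which they made from poly-A selected, non-stranded reads of 2 × 100 bases with adapters removed by Cutadapt, trimming by Sickle at a Phred score of 20, reads under 50 bases left out, alignment to GRCh38 by HISAT2 and estimation by StringTie; the submitters' processing notes name Cutadapt, HISAT2 and StringTie too. The annotation release is not given in the sources used here. 99.5% of the 60558 gene IDs were in GENCODE 44, which gave positions. The FPKM sums were 403354 to 468392 per library, read counts are unknown, and an FPKM of 1 stands for a mean depth of about 4.38 to 6.11 if the lowest FPKM above 0 is read as a depth of 1.

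limma 3.58.1 (R 4.3.3), with a variance trend, was fitted to log2(FPKM + 1), which understates changes of low genes, for 14206 genes (1 FPKM or more in 2 or more libraries), all 8 libraries in one fit, with Benjamini-Hochberg adjustment over all genes in each of 5 comparisons and an adjusted p threshold of 0.05, two-sided. The fit was tested on simulated data. All 7 members are named, from each gene list up to 6 called genes by size plus those at 0 in all libraries, and for each member tested the 3 genes nearest in pattern. Genes named beyond this rule (those of the 12 at 0 without cytokines, and a few more per list) were chosen after values were seen. Some list genes are not reported here. The members and lists were chosen with earlier results of these data known. Promoter windows came from RefSeq. Alternatives covered the pseudocount, filters, scaling, the trend, the groups in the fit, a replicate block and each library left out. Tables and plots used Python 3.11.15, pandas 2.3.3 and matplotlib 3.10.9.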

Additional observations from a re-analysis of the deposited data

Results flagged for a closer look

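The PM10 effect on GBP2 differed between the inflamed and normal states by limma's interaction test, -0.35 on the log2 scale with an adjusted p of 0.02768. GBP2 went from 8.85 to 10.9 FPKM with PM10 in normal hIECs and from 33.1 to 31.2 FPKM in inflamed hIECs (2 libraries each), and the libraries that decide this call are given with the result.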

How the results depend on the processing

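The cytokine results did not depend on the setting: limma called GBP1 to GBP5 higher under all 17 alternatives in each of the 2 cytokine comparisons, and 0 members were called for PM10 in inflamed hIECs under any of them. GBP4 and GBP5 entered these fits only through the libraries with cytokines. For PM10 in normal hIECs, where 2 members were called, the number was 0 with only the groups compared, 0 after rescaling to TPM, 1 (GBP2) without the variance trend, and 0 to 2 over the leave-one-out fits. For the interaction, with 1 called, it was 2 after median centring, 0 after rescaling to TPM, and 0 to 2 over the leave-one-out fits. The cause was not tested. The interaction of GBP3, 0.03 in the report and not called, changed sign to -0.014 with a pseudocount of 0.1, and over the leave-one-out fits it ran from -0.0651 to 0.127, with -0.0114 without inflamed replicate 1 and -0.0596 without normal replicate 2. Of 418 values of single members under the alternatives, 391 kept direction and side of the threshold, 20 lost the call, 3 gained it and 4 changed sign. The 391 include 16 each for GBP4 and GBP5 under PM10 in normal hIECs, where both were listed at 0 and could not be called. With only the groups compared the PM10 comparison in normal hIECs had 239 genes called by limma, instead of 1311, and 192 without normal with PM10 replicate 1. The replicate block left the counts of members at 5, 5, 2, 0 and 1. The main fit did not pair libraries by replicate number. Deviations from the group means of same-numbered libraries correlated by -0.0015 to 0.0793, which cannot show whether they were made together. Depth limits GBP6 and the members at 0: without counts, a 0 cannot be told from a level under 0.164 to 0.228 FPKM, and 2 libraries a group limit the precision of each SD.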
